A study of Mus musculus with 6 samples.

Results

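Ly6k, Tex101, Prss50, Prss41 and Prss21 encode surface proteins and serine proteases made by male germ cells, and Ly6e and Ly6a are broadly expressed relatives of Ly6k set beside them. The 7 genes were taken by symbol from a table of 22219 genes, and all 7 were found in it. They were chosen by symbol with their difference in read count between cKO and control already known, so these values are a description without a test. RNA was measured in testes labelled day 10, with no reference point for the day, in 6 libraries. The 3 cKO libraries came from mice with Eif5 deleted in germ cells, obtained from Eif5fl/fl and Stra8-Cre parents, and the 3 control libraries from mice whose genotype is not given in the labels. Loss of Eif5 therefore cannot be told apart from effects of Stra8-Cre alone or of the floxed alleles. Eif5 encodes the translation initiation factor that triggers GTP hydrolysis on the scanning ribosome. The Stra8 promoter drives the Cre in germ cells, so the somatic cells of the testis keep Eif5. The strain and the number of animals per library are not stated, so the p-values below measure only the spread between these samples.

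LY6/uPAR proteins share a small, cysteine-rich fold with 3 loops, and most are held on the cell surface by a glycosylphosphatidylinositol (GPI) anchor. TEX101 and LY6K are a pair of such proteins of mouse germ cells that bind each other. Sperm of mice lacking either protein fail to pass from the uterus into the oviduct, and the sperm surface protein ADAM3 is affected. PRSS41 and PRSS21, also called TESSP1 and testisin, are trypsin-like proteases of the testis that carry a GPI anchor, and PRSS50, or TSP50, is a testis protease related to them. LY6E is found in many tissues and is induced by interferon. LY6A, or SCA-1, marks blood stem cells and many vascular and stromal cells of the mouse.

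Promoter sequences are shown for Tex101, Prss50 and Prss41, because these genes moved together and had an entry in the RefSeq promoter table. Prss21 also had an entry, and of several Prss50 entries the first is shown. Ly6k, Ly6e and Ly6a did not. Each sequence runs 5′ to 3′ on the gene's own strand from 250 bases before to 50 bases after the annotated start, with coordinates on build GRCm38.p6. The build of the expression table is not given. Capitals mark matches on either strand to CCAAT (the CCAAT box), GGGCGG (the GC box), CNCCTCAG (the motif reported for STRA8), TGACGTCA (the cyclic AMP response element) or CACGTG (an E-box), and no matches overlapped.
Tex101, chr7:24672001-24672300, minus strand: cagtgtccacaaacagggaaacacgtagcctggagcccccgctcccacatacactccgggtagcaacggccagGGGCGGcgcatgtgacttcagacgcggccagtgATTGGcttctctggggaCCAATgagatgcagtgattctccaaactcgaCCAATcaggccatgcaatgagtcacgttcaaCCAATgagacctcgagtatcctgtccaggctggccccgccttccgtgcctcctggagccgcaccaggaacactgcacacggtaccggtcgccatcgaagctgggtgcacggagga
Prss50, chr9:110857714-110858013, plus strand: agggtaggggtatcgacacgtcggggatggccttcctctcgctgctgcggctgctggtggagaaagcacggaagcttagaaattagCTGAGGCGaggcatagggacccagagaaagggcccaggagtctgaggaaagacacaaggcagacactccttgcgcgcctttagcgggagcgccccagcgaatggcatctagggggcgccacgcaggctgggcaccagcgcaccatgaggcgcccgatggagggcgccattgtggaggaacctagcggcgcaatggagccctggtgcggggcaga
Prss41, chr17:23844107-23844406, minus strand: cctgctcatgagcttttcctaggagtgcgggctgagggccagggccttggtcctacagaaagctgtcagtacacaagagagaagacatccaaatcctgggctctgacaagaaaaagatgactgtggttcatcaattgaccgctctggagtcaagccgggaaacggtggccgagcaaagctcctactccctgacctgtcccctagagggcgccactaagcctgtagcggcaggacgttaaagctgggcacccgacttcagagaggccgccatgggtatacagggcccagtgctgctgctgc

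The Tex101 promoter held 4 CCAAT matches, beginning 144, 127, 96 and 65 bases before the start, and 1 GC box. Of the 32851 promoters in the table, 37.4% held at least 1 CCAAT match and 1.06% held 4 or more, and 35.7% held a GC box. The Prss50 promoter held 1 match to CNCCTCAG, on the reverse strand and beginning 164 bases before the start, a motif present in 7.94% of the promoters. The Prss41 promoter held none of the 5 motifs. The cyclic AMP response element was present in 1.79% and CACGTG in 7.15% of the promoters. A match is a description of letters, and binding was not measured.

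The targeted gene was checked first. Eif5 had 8548, 8982 and 9574 normalised read counts in cKO replicates 1 to 3, against 11964, 10551 and 11187 in the controls. A normalised read count is the number of reads of a gene divided by 1 scaling factor per library. Every cKO library lay below every control, by -0.31 in log2 fold change (SE 0.0947, limma adjusted p = 0.024). On the germ cell scale described below, Eif5 was instead called higher (0.41, limma adjusted p = 0.00653). Which exons the reads came from is not known, and the somatic cells contribute their own. On the deposited scale, dropping cKO replicate 1 or 2 ended the call of Eif5 (adjusted p = 0.13 and 0.0875). Recovered reads ran from 32555443 to 48015318 in cKO libraries and from 33631996 to 48409550 in control libraries. Of the 22219 genes, 17570 passed the filter on low counts and were tested, and 6 of the 7 members were among them. Prss21 was not.

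Ly6k had 46.1, 68.3 and 113 normalised read counts in cKO replicates 1 to 3, against 401, 404 and 519 in the controls. Every cKO library lay below every control, and the highest cKO library, replicate 3, was still far under the lowest control. The means were 75.7 ± 33.9 in cKO and 441 ± 67.3 in controls (SD, n = 3 each), which put cKO at 17.2% of control. The log2 fold change was -2.59 (SE 0.241). In whole testes, fewer cells of a type and less RNA per cell cannot be told apart, and this holds for every germ cell gene below.

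Tex101, the partner of Ly6k, was far more abundant and less reduced. It had 2169, 2082 and 2729 normalised read counts in cKO replicates 1 to 3, against 6107, 6264 and 7469 in the controls. The groups did not overlap, and replicate 3 was the highest library in both. cKO averaged 2327 ± 351 and controls 6613 ± 745 (SD, n = 3 each), so cKO kept 35.2% of the control level. The log2 fold change was -1.51 (SE 0.109).

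Prss50 had 718, 953 and 1173 normalised read counts in cKO replicates 1 to 3, against 3942, 4175 and 5716 in the controls. Again all cKO libraries were below all controls and replicate 3 was highest in each group. The means were 948 ± 228 in cKO and 4611 ± 964 in controls (SD, n = 3 each), or 20.6% of control, with a log2 fold change of -2.29 (SE 0.147). Prss41 was a low gene and kept the lowest fraction of the tested members. It had 16.9, 32.9 and 19.4 normalised read counts in cKO replicates 1 to 3, against 149, 136 and 216 in the controls. The means of 23.1 ± 8.63 in cKO and 167 ± 42.9 in controls (SD, n = 3 each) put cKO at 13.8% of control, with a log2 fold change of -2.78 (SE 0.300). Behind these Prss41 values stood 15, 41 and 16 reads in cKO and 201, 125 and 198 in controls. Prss41 was the only one of the 4 reduced genes in which cKO replicate 2, not replicate 3, was the highest cKO library.

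Prss21, the testisin gene, was close to the limit of detection. It had 0 reads in each cKO library, against 6, 4 and 2 reads in control replicates 1 to 3. With a floor of 3 reads over the cKO group in place of 0, its scaled level was 3.71-fold lower in cKO. This figure allows for counting error of the cKO group only and takes the 12 control reads as exact, so it is not a lower bound. The lowest total of any gene in the table was 10 reads, so Prss21 was in it only through its control reads. Low counts in this table were mostly even numbers, so single reads may not be independent events.

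The broadly expressed relatives were not lower on the deposited scale. Ly6e had 15467, 13657 and 15466 normalised read counts in cKO replicates 1 to 3, against 8565, 9863 and 10922 in the controls. All cKO libraries were above all controls. The means were 14863 ± 1044 in cKO and 9783 ± 1181 in controls (SD, n = 3 each), or 152% of control, with a log2 fold change of 0.61 (SE 0.105). Ly6a had 131, 109 and 84.8 normalised read counts in cKO replicates 1 to 3, against 85.8, 67.5 and 118 in the controls. The groups overlapped, with means of 108 ± 22.9 in cKO and 90.3 ± 25.4 in controls (SD, n = 3 each), and a log2 fold change of 0.27 (SE 0.251).

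**Figure D1:**
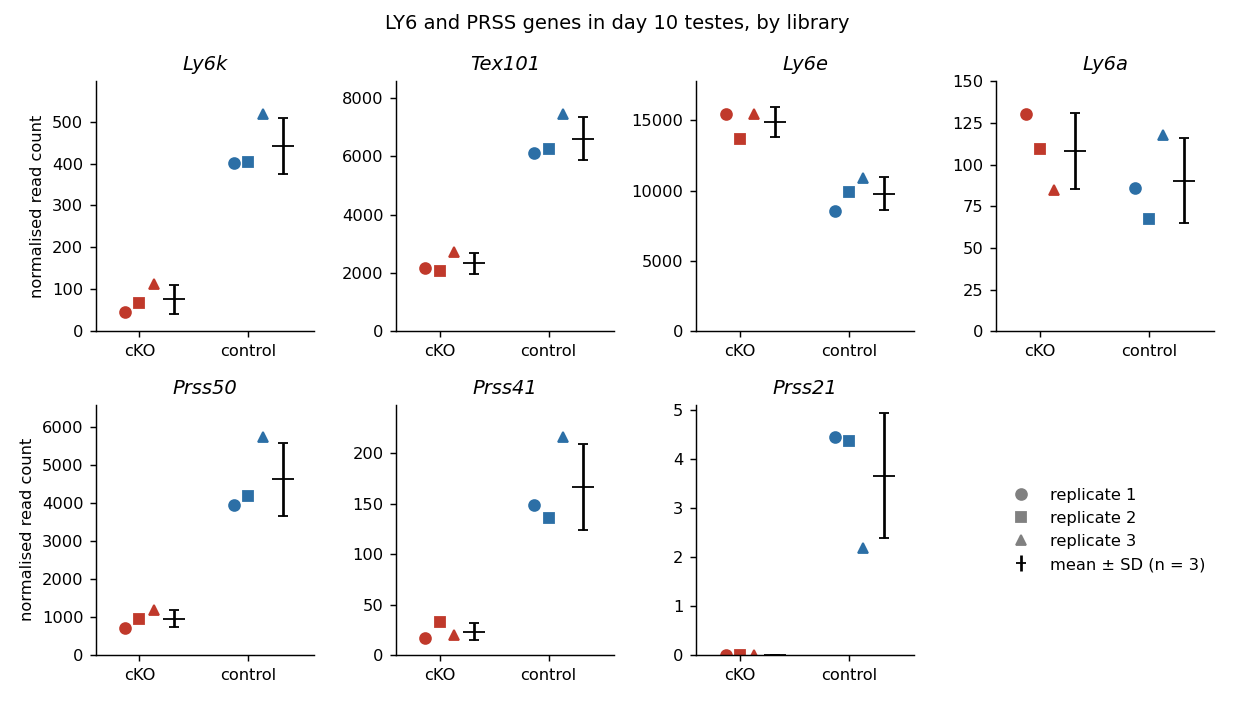
Normalised read counts (y axis, linear from 0) of the 7 genes in each library, with cKO left and control right in each panel. Symbols give the replicate and black bars the mean ± SD of 3 libraries. Ly6k, Tex101, Prss50, Prss41 and Prss21 lie lower in every cKO library than in any control, Ly6e lies higher, and the groups overlap for Ly6a.

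In the fit over all genes, limma called 20.0% of the 17570 tested genes, 9.63% higher and 10.4% lower in cKO. Separate groups were seen for 36.7% of tested genes, with cKO below the controls for 18.4% and above them for 18.3%. Among the 6 tested members 4 were lower by both criteria and 1, Ly6e, was higher, and these counts follow from the choice of the genes. The split of 1692 genes higher and 1829 lower depended on the scaling, with 807 and 2495 for library totals and 27 and 5523 for the Sertoli scaling described below. Ordered from the lowest log2 fold change, Prss41 stood at place 7 of 17570, Ly6k at 12, Prss50 at 25 and Tex101 at 154.

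Levels were compared between genes per kilobase of transcript, using the median length of protein-coding transcripts in GENCODE M21. In cKO testes the order of mean normalised read counts per kilobase was Ly6e (18696), Tex101 (2004), Prss50 (884), Ly6a (126), Ly6k (108), Prss41 (15.8) and Prss21 (0). In control testes it was Ly6e (12306), Tex101 (5696), Prss50 (4300), Ly6k (629), Prss41 (114), Ly6a (105) and Prss21 (3.34). Neighbours with overlapping libraries were Ly6a and Ly6k in cKO (98.9 to 152 and 65.8 to 161 per kilobase), and in controls Tex101 and Prss50 (5260 to 6433 and 3676 to 5330) and Prss41 and Ly6a (93.0 to 148 and 78.7 to 137). Thus Ly6k and Prss41 were above or level with Ly6a in controls, whereas in cKO Prss41 was below it and Ly6k level with it.

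How far the values depend on the scaling was examined for each gene. The deposited factors assume that most genes keep their level, and other denominators moved all genes together. Across all genes the median log2 fold change was 0.01 with the deposited factors, -0.08 with library totals and -0.42 with values divided by the summed level of 18 Sertoli cell genes. It was 0.72 with values divided by the summed level of 9 germ cell identity genes, a setting added after the data were seen. On these 4 scales, in that order, the log2 fold change of Ly6k was -2.59, -2.68, -3.02 and -1.88. That of Tex101 was -1.51, -1.60, -1.94 and -0.79. Prss50 (-1.57) and Prss41 (-2.09) were also lower on the germ cell scale. Ly6e was 0.61, 0.52, 0.17 and 1.33, positive on each scale but not called on the Sertoli scale, whereas Ly6a was 0.27, 0.19 and 0.98 but turned to -0.16 on the Sertoli scale.

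**Figure D2:**
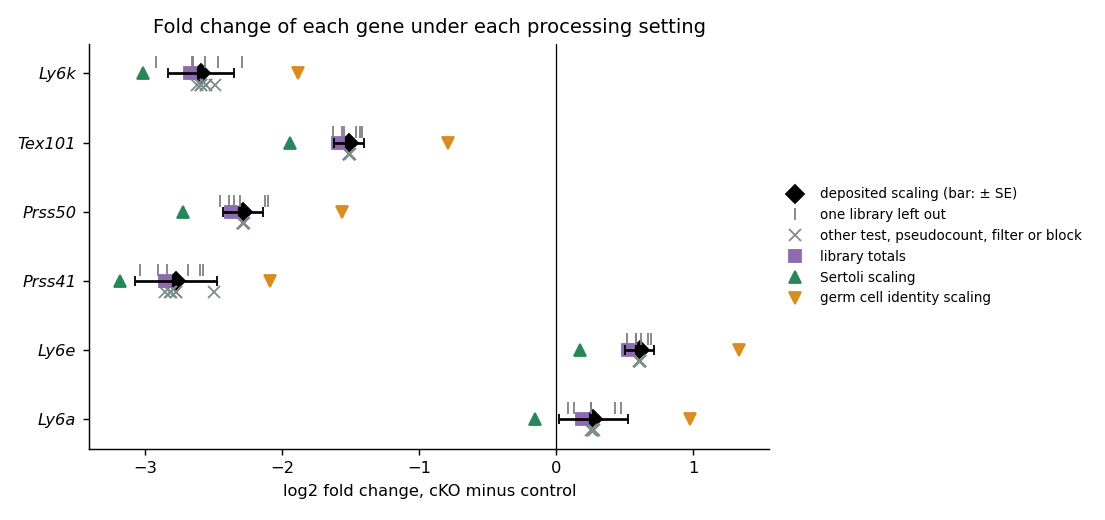
Log2 fold change (x axis, cKO minus control) of the 6 tested genes under each setting. Diamonds with bars give the deposited scaling ± SE, ticks the fits with 1 library left out, crosses other tests, pseudocounts, no filter or a replicate block, and coloured symbols other scalings. Ly6k, Tex101, Prss50 and Prss41 are negative in every setting shown and Ly6e positive, though not called under the Sertoli scaling (0.17), and Ly6a is negative under the Sertoli scaling.

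Ratios within a library do not depend on its scaling factor. Ly6k made up 2.13%, 3.28% and 4.13% of the Tex101 count in cKO replicates 1 to 3, against 6.56%, 6.45% and 6.95% in the controls. Prss50 made up 33.1%, 45.8% and 43.0% of Tex101 in cKO, against 64.6%, 66.6% and 76.5% in controls. Prss41 came to 0.778%, 1.58% and 0.710% of Tex101 in cKO, against 2.43%, 2.17% and 2.89% in controls. All 3 ratios were lower in each cKO library than in any control, so these genes kept less of their control level than Tex101 did. The ratio of Ly6k to Prss50 overlapped between groups, with 6.43%, 7.16% and 9.61% in cKO and 10.2%, 9.67% and 9.08% in controls.

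The same was done against the summed level of a germ cell identity list, which is an RNA level and not a measure of germ cell content. Of 10 genes in the germ cell identity list 9 were in the table. Their summed level, over Ddx4, Dazl, Dnd1, Mael, Tex15, Tdrd9, Piwil2, Rnf17 and Elavl2, was 27018, 28578 and 27724 in cKO replicates 1 to 3, against 51957, 42746 and 43240 in the controls. Tex101 amounted to 8.03%, 7.28% and 9.84% of that sum in cKO, against 11.8%, 14.7% and 17.3% in controls. Ly6k amounted to 0.171%, 0.239% and 0.406% in cKO, against 0.772%, 0.945% and 1.2% in controls. Prss50 came to 2.66%, 3.34% and 4.23% in cKO, against 7.59%, 9.77% and 13.2% in controls. The groups did not overlap in any of these 3 ratios, nor in that of Prss41. They did not overlap for Ly6e and Ly6a either, whose ratios to the sum were higher in cKO. Ly6a came to 0.483%, 0.382% and 0.306% in cKO, against 0.165%, 0.158% and 0.272% in controls. The sum itself was lower in cKO, and how many of all genes separate on this scale was not counted. The share of germ cells in each stage was not measured, and its part in these ratios was not tested.

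**Figure D3:**
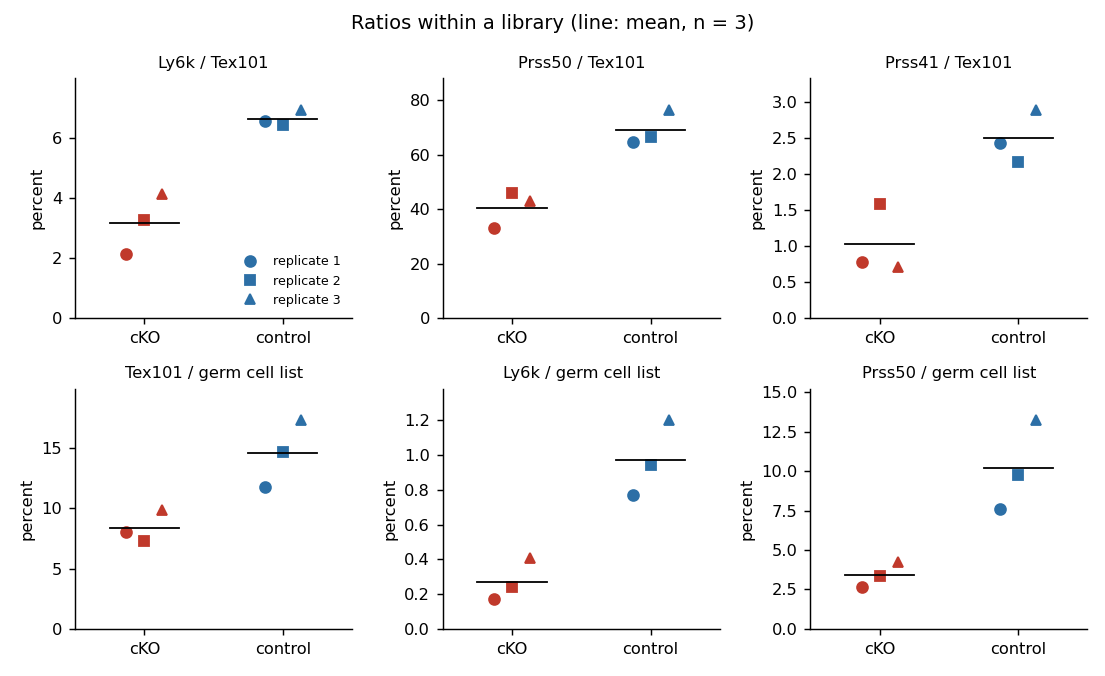
Ratios of normalised read counts within each library in percent (y axes, linear from 0), with cKO left and control right; symbols give the replicate and lines the mean of 3 libraries. Ly6k, Prss50 and Prss41 relative to Tex101, and Tex101, Ly6k and Prss50 relative to the summed germ cell identity list, are lower in every cKO library than in any control.

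Germ cell lists fell while Sertoli cell genes rose on the deposited scale. Of 9 tested germ cell identity genes, limma called 8 lower and none higher. These shares of 88.9% and 0% stood against 10.4% lower and 9.63% higher over all tested genes. The median log2 fold change of the 9 was -0.79, against 0.01 over all genes. Tex15, a gene of meiotic recombination and retrotransposon silencing, was lowest (-1.21), followed by the RNA-binding protein gene Elavl2 (-1.13), the Tudor protein gene Rnf17 (-0.82) and Dazl, a germ cell RNA-binding protein gene (-0.80), with limma adjusted p of 1.14e-07, 3.67e-06, 2.67e-05 and 7.8e-05. Of 11 genes of differentiating spermatogonia 10 were lower (90.9%, median -0.89). They included the meiotic regulator Meioc, listed as Gm1564 (-2.22), Stra8, which responds to retinoic acid (-1.73), Rhox13, a homeobox gene (-1.58), the transcription factor gene Dmrtb1 (-1.51) and the receptor gene Kit (-0.34), with limma adjusted p between 7.18e-09 and 0.0124. Kit lost its call without cKO replicate 2 or 3 (adjusted p = 0.0696 and 0.0876). On the germ cell scale Kit was instead called higher (0.38, limma adjusted p = 0.0153). On the germ cell scale the medians of these lists were -0.07 and -0.17. The first lies near 0 by construction, because that scale divides by the sum of the same genes. On the deposited scale the changes of Ly6k, Prss50 and Prss41 were lower than every gene of either list. Prss50 (-2.29, SE 0.147) was close to Meioc (-2.22), however. Tex101 lay within the range of the second list, and Ly6e (0.61) lay within the Sertoli range of -0.05 to 0.79. Of 18 Sertoli genes 12 were higher on the deposited scale (66.7%, median 0.45). Among them were Amh (0.79), Inha (0.77), Fshr (0.64) and Sox8 (0.61), which encode a hormone, an inhibin subunit, a hormone receptor and a transcription factor, with limma adjusted p between 0.000188 and 0.00105. On the Sertoli scale, which divides by the sum of the 18 Sertoli genes and so centres them by construction, 2 of the 18 were called higher. Clu, the most abundant of them, was not called (0.39, limma adjusted p = 0.217).

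Of the other genes of the LY6/uPAR family the filter left 19 of the 29 found, and limma called 1 higher and 2 lower (median 0.12). Over all tested genes 9.63% were called higher and 10.4% lower, so these shares of 5.26% and 10.5% are near the background. The 2 lower genes were Hemt1, a RefSeq synonym of Gml2, and its relative Gml. Hemt1 had 54.0, 46.6 and 49.7 normalised read counts in cKO, against 111, 95.8 and 124 in controls (log2 fold change -1.10, SE 0.247, limma adjusted p = 0.00376). The log2 fold change of Gml was -0.87 (limma adjusted p = 0.0435). It was not called without cKO replicate 2, control replicate 1 or control replicate 3 (adjusted p = 0.216, 0.0653 and 0.182), by edgeR (0.051) or with no filter (0.053). On the germ cell scale neither was called (-0.40 and -0.17). Gml and Gml2 are similar copies, so their values are uncertain where reads were shared. Cd59a, which encodes a complement inhibitor and was the most abundant of the list, rose to 1754, 1478 and 1581 normalised read counts in cKO, against 958, 1011 and 1289 in controls (log2 fold change 0.57, limma adjusted p = 0.00179), and on the Sertoli scale it was 0.14 and not called (adjusted p = 0.608). Without 1 library the count was 1 to 2 in each direction.

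Among other PRSS and acrosomal trypsin-like protease genes, 14 of 21 found were tested, with 2 higher and 2 lower (median -0.36). These shares of 14.3% each stood against 9.63% higher and 10.4% lower over all tested genes. Prss38 had 11.3, 9.64 and 21.8 normalised read counts in cKO, against 52.5, 56.6 and 66.5 in controls (log2 fold change -1.97, SE 0.385, limma adjusted p = 0.00126). Tmprss12, a transmembrane protease gene needed for sperm function in mice, had 0, 3.21 and 4.85 in cKO, against 25.1, 18.5 and 28.3 in controls (log2 fold change -2.63, SE 0.630, limma adjusted p = 0.00593), and DESeq2 gave no adjusted p for it. For neither gene did the groups overlap, and both passed the filter through their control libraries. The Prss50 neighbours Prss42 (-1.30, limma adjusted p = 0.0527), Prss45 (-1.19, limma adjusted p = 0.123) and Prss44 (-0.55, limma adjusted p = 0.415) were tested but not called. Prss35, the most abundant of the list, was higher, with 35070, 31052 and 36030 in cKO, against 22130, 24463 and 27110 in controls (log2 fold change 0.47, limma adjusted p = 0.00645), and Prss12 had a log2 fold change of 0.36 (limma adjusted p = 0.0356). On the Sertoli scale neither was called higher (0.04 and -0.07). Prss35 was not called without cKO replicate 3 (adjusted p = 0.0517). Prss12 was not called without cKO replicate 1, cKO replicate 3 or control replicate 1 (adjusted p = 0.141, 0.0893 and 0.16).

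In the pathway by which ADAM3 and its partners reach the sperm surface, 10 of 17 genes found were tested, and 2 were lower and 0 higher (median -0.18). The shares were 20% lower and 0% higher, against 10.4% and 9.63% over all tested genes. Dpep3 encodes a GPI-anchored dipeptidase that binds TEX101. It fell to 770, 792 and 989 normalised read counts in cKO, against 2686, 3164 and 3458 in controls (log2 fold change -1.87, SE 0.115, limma adjusted p = 1.78e-09), and cKO kept 27.4% of the control mean. Clgn encodes calmegin, a chaperone of the germ cell endoplasmic reticulum. It fell to 318, 324 and 410 in cKO, against 708, 773 and 829 in controls (log2 fold change -1.14, SE 0.134, limma adjusted p = 5.81e-06). Both were called lower under all alternatives, and on the germ cell scale their log2 fold changes were -1.15 and -0.42. Ace was the most abundant of the list and was not called (0.12, limma adjusted p = 0.49). Its testis form releases TEX101 from the cell surface, but the counts are per gene and do not tell that form from others. Adam2, a sperm surface gene, was below the filter, with 2.25, 1.61 and 0 normalised read counts in cKO and 7.40, 8.71 and 7.63 in controls. Adam3 itself was below it too, with 0, 8.03 and 10.9 in cKO and 44.4, 5.44 and 2.18 in controls.

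Of the machinery that makes and attaches the GPI anchor all 35 genes found were tested, and 6 were higher and 1 lower (median 0.04). The shares were 17.1% higher and 2.86% lower, against 9.63% and 10.4% over all tested genes. Dpm1, the catalytic subunit of the enzyme that supplies mannose, fell to 132, 153 and 125 normalised read counts in cKO, against 278, 206 and 238 in controls (log2 fold change -0.80, SE 0.184, limma adjusted p = 0.00433). Pgap2, a gene of anchor lipid remodelling, rose to 8572, 7667 and 8976 in cKO, against 4932, 5743 and 7254 in controls (0.51, SE 0.116, limma adjusted p = 0.00443). Pigc (0.39, limma adjusted p = 0.0251) and Pigq (0.37, limma adjusted p = 0.00697), both of the enzyme of the first step, and the cargo receptor gene Tmed10 (0.30, limma adjusted p = 0.0463), the most abundant of the list, were higher on the deposited scale. On the Sertoli scale 27 of all 17570 tested genes were higher and 5523 lower. Of the 35 genes 0 were higher and 12 lower on that scale, and the signs of Pigc, Pigq and Tmed10 turned. Without 1 library the number higher was 7 for control replicate 3 and 2 or 3 for any other. Pigc lost its call without cKO replicate 2, cKO replicate 3 or control replicate 2 (adjusted p = 0.0805, 0.0793 and 0.12). Tmed10 lost it without any 1 of the cKO replicates or control replicate 1 or 2 (adjusted p = 0.0928 to 0.166), with a replicate block (0.0663), by edgeR (0.0569) and with no filter (0.0539).

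Among 40 tested genes of other GPI-anchored proteins, 10 were higher and 2 lower on the deposited scale (median 0.18), and on the Sertoli scale 0 were higher and 6 lower. The deposited shares of 25% and 5% stood against 9.63% and 10.4% over all tested genes. On the Sertoli scale 27 of all 17570 tested genes were higher and 5523 lower. Gpc2, a glypican gene, fell to 327, 407 and 457 normalised read counts in cKO, against 677, 787 and 726 in controls (log2 fold change -0.89, SE 0.137, limma adjusted p = 0.00013). Efna3, an ephrin gene, fell to 232, 188 and 138 in cKO, against 264, 307 and 386 in controls (-0.79, limma adjusted p = 0.00712). Cd24a rose to 1741, 1878 and 1965 in cKO, against 1192, 1095 and 1383 in controls (0.61, limma adjusted p = 0.000428), and Enpp6, a choline phosphodiesterase gene, had a log2 fold change of 0.65 (limma adjusted p = 0.0495). Nt5e, the CD73 ectonucleotidase gene and the most abundant of the list, had 0.42 (limma adjusted p = 0.00898). Without 1 library the number higher ran from 4, for cKO replicate 1, cKO replicate 3 or control replicate 1, to 12. Enpp6 lost its call without any 1 of the cKO replicates or control replicate 1 or 2 (adjusted p = 0.0623 to 0.208), by edgeR (0.0575) and with no filter (0.068). Nt5e lost it without cKO replicate 3 (adjusted p = 0.0622), and on the Sertoli scale it was -0.02.

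**Figure D4:**
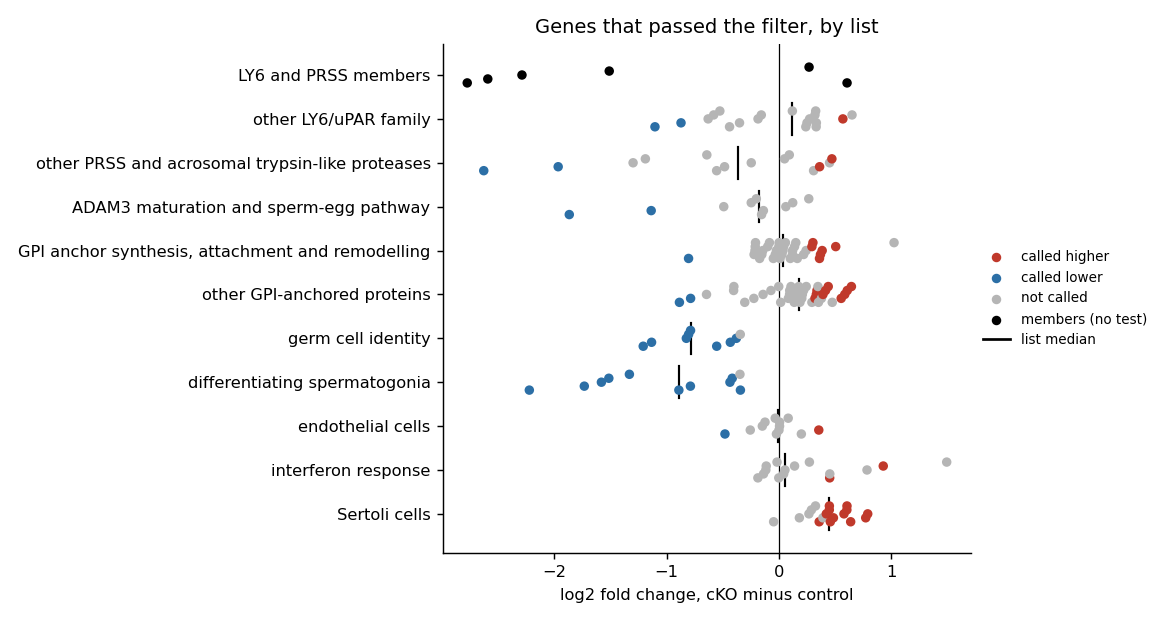
Log2 fold change (x axis, cKO minus control, deposited scaling) of every tested gene by list, with the members in black, genes called higher in red, lower in blue and not called in grey, and the list median as a vertical line. The germ cell lists lie left of 0 and the Sertoli median is 0.45 on this scale. The Sertoli median is 0.02 on the Sertoli scale, which divides by these same genes. The LY6/uPAR and GPI lists centre between 0.04 and 0.18 and turn to between -0.40 and -0.25 on the Sertoli scale.

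Markers relevant to Ly6e and Ly6a were examined as lists. Of 12 endothelial genes (median -0.01) 1 was higher and 1 lower on the deposited scale. That was 8.33% in each direction, against 9.63% higher and 10.4% lower over all tested genes. The cadherin gene Cdh5 was higher (0.36, limma adjusted p = 0.0115) but -0.08 on the Sertoli scale, and lost its call without cKO replicate 1 (adjusted p = 0.0544). Egfl7, a gene of a secreted vascular protein, was lower (-0.48, limma adjusted p = 0.0104) but 0.24 on the germ cell scale, and lost its call without cKO replicate 2 or control replicate 2 (adjusted p = 0.053 and 0.0563). The summed endothelial level was 13498 to 14472 in cKO libraries and 11022 to 13988 in controls, with overlap, and no gene of the list was at 0 in all libraries. Of 15 tested interferon response genes (median 0.05) 2 were higher, among them the GTPase gene Gbp2 (0.93, limma adjusted p = 0.00883). The 2 made up 13.3%, against 9.63% higher over all tested genes, and none was lower. Gbp2 was not called on the Sertoli scale (0.50, adjusted p = 0.147) or without cKO replicate 1 (adjusted p = 0.0745). The summed level of the interferon list was 3189 to 4248 in cKO and 3185 to 3671 in controls. The part of these cells and genes in the Ly6e difference was not tested.

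The genes nearest to the members on the chromosome were read from the RefSeq gene table, 3 on each side. Only genes that passed the filter were taken, so genes below it and other members in between were passed over. These neighbours came to 27 different genes (median -0.35), of which limma called 1 higher and 4 lower. Over all tested genes 9.63% were called higher and 10.4% lower, and the median was 0.01. Near Ly6k lay Gml and Hemt1 on one side. On the other lay Lynx1, the nearest, and Psca, neither of them called (-0.35 and -0.19, limma adjusted p = 0.0681 and 0.845). Them6, a thioesterase family gene, lay between Lynx1 and Psca and was lower (-0.57, limma adjusted p = 0.00944). Them6 was 0.15 on the germ cell scale and not called without cKO replicate 3 or control replicate 3 (adjusted p = 0.0599 and 0.0571). Ly6e and Ly6a lie in the same gene cluster, and their other neighbours Ly6c1, Ly6h, Gpihbp1 and Cyp11b1 were not called. Beside Tex101, Cd177, which encodes another GPI-anchored protein of the LY6/uPAR type, had 69.8, 78.7 and 87.2 normalised read counts in cKO, against 45.9, 39.2 and 43.6 in controls (0.84, SE 0.271, limma adjusted p = 0.033). This rise ran against the direction of Tex101, and its call was lost without any 1 of the 6 libraries (adjusted p = 0.0507 to 0.116). Near Prss41 and Prss21 the kinase gene Pdpk1 fell on the deposited scale (-0.48, limma adjusted p = 0.00268) and was 0.24 on the germ cell scale.

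Genes with the most similar profile were found by the root mean square distance between centred log2 values over the 6 libraries. For Ly6k these were the histone gene H2bfm (0.211), Spo11, which makes the breaks of meiotic recombination (0.224), and Prss50 itself (0.229). For Prss50 they were Cd3e (0.160), known as a subunit gene of the T cell receptor complex, H2bfm (0.187) and the small GTPase gene Rab26 (0.190). Cd3e had 50.6, 59.4 and 92.1 normalised read counts in cKO, against 225, 271 and 347 in controls. Spo11 had 9, 22.5 and 29.1 in cKO, against 107, 94.7 and 111 in controls. For Tex101 they were the non-coding host gene Snhg11 (0.0667), Gm364 (0.147) and the growth factor receptor gene Fgfr3 (0.151). Prss41 had no close match, with Slc51a, Eras and Fsd2 at 0.306, 0.336 and 0.371, all lower in count than Prss41. Reads in cKO replicates 1 to 3 were 1, 5 and 0 for Slc51a, 4, 12 and 4 for Eras, and 0, 4 and 0 for Fsd2. DESeq2 gave no adjusted p for Slc51a and Fsd2. H2bfm was also low, with 8, 14 and 14 reads in cKO. Ly6e was nearest to Rtn4rl1 (0.0382), Vstm4 (0.0404) and Igsf11 (0.0475), and Ly6a to Runx1 (0.0735), Pllp (0.0801) and Ms4a6c (0.0935). These distances mostly follow the difference between groups and carry no test.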

How the data were processed

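The authors deposited 1 table with a column per library, named for raw counts. Its deposited values are a normalised signal: 100% of them were whole multiples of 1 step per column (tolerance 1e-06), so whole reads were recovered. Recomputed median-of-ratios size factors matched the steps. The submitters' processing notes list StringTie 1.3.1 and RSEM without a role. No source used here gives the aligner, build, annotation or strand setting. Among recovered counts of 1 to 20, 75.1% to 80.9% per library were even. Genes were filtered with edgeR's filterByExpr (minimum count 10). limma 3.58.1 with an intensity-dependent prior was fitted to log2(value + 2) over 17570 genes in R 4.3.3, 2-sided, with Benjamini-Hochberg adjustment and calls at an adjusted p under 0.05. Fold changes are on this scale and understate those of low genes. The fits were checked on simulated data. edgeR 4.0.16, DESeq2 1.42.0, other pseudocounts, scalings and filters, a replicate block and leaving out each library were alternatives. Of 255 genes in 10 lists 211 were matched, 7 by RefSeq synonym. The members and lists were chosen with earlier results of these data known. Named were the members and, per list, up to 4 called genes with the largest change and the most abundant gene, called neighbours and the 3 nearest profiles; other genes named were chosen after their values were seen. 1 called list gene is not reported here.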

Additional observations from a re-analysis of the deposited data

How the results depend on the processing

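Ly6k, Tex101, Prss50 and Prss41 had negative and Ly6e positive log2 fold changes in cKO under every alternative run, but Ly6e was not called under the Sertoli scaling. Leaving out 1 library gave log2 fold changes of -2.92 to -2.29 for Ly6k, -1.63 to -1.42 for Tex101, -2.46 to -2.10 for Prss50, -3.04 to -2.58 for Prss41, 0.52 to 0.69 for Ly6e and 0.08 to 0.47 for Ly6a. The germ cell scaling, which moves all genes up, gave -1.88, -0.79, -1.57, -2.09, 1.33 and 0.98 in the same order, and the Sertoli scaling, which moves them down, gave -1.94 for Tex101, -2.72 for Prss50, 0.17 for Ly6e and -0.16 for Ly6a. The deposited fit called 1692 genes higher and 1829 lower. The Sertoli scaling called 27 higher and 5523 lower, library totals 807 higher and 2495 lower, and fits without 1 library (916 to 1005 higher without a cKO library) 916 to 1764 higher and 1278 to 1792 lower. On the recovered reads edgeR called 1575 higher and 1857 lower and DESeq2 1887 and 2021. With a replicate block 1535 were higher and 1771 lower. Same-numbered libraries did not deviate together (correlations -0.038, -0.0023 and 0.055), and not every library correlated best with its own number, so the numbers were not read as pairs. Under the Sertoli scaling 0 were higher in the LY6/uPAR, PRSS, GPI synthesis, GPI-anchored, endothelial and interferon lists and 2 in the Sertoli list, while 4 LY6/uPAR, 6 PRSS, 4 ADAM3, 12 GPI synthesis, 6 GPI-anchored, 4 endothelial and 1 interferon genes were lower. With library totals 1 PRSS, 2 GPI synthesis, 5 GPI-anchored, 0 endothelial and 1 interferon genes were higher and 2 GPI synthesis genes lower. Of the LY6/uPAR list 2 were higher and 1 lower with no filter, and 1 was lower by edgeR. Without 1 library the numbers higher ran from 1 to 2 (LY6/uPAR), 0 to 2 (PRSS), 2 to 7 (GPI synthesis), 4 to 12 (GPI-anchored), 0 to 1 (endothelial) and 0 to 2 (interferon), and the numbers lower from 1 to 2 (LY6/uPAR), 1 to 2 (GPI synthesis) and 0 to 2 (endothelial). Library totals ended the calls of Prss12, Pigc, Tmed10, Enpp6, Cdh5 and Cd177 (adjusted p = 0.0546 to 0.137), and the germ cell scaling those of Dpm1, Gpc2 and Efna3 (log2 fold changes -0.09, -0.17 and -0.07). Apart from what the scalings do by construction, the cause was not tested. Low read numbers limit the precision for Prss21, Prss41 and Ly6a.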
